A study of Mus musculus with 12 samples.

Results

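The last stretch of cholesterol synthesis, from lanosterol to cholesterol, was followed through the livers of 12 mice by RNA-seq. The genes are 8 enzymes of that stretch, taken by name: Cyp51, Tm7sf2, Msmo1, Nsdhl, Hsd17b7, Ebp, Sc5d and Dhcr7. Each symbol matched 1 Ensembl gene identifier of the 47729 in the count files, and all 8 were among the 16823 genes that passed a filter on low counts (edgeR's filterByExpr, minimum count 10). Every mouse was C57BL/6, and there were 4 per group. Healthy mice were wild-type and received vehicle. STAM mice were males given streptozotocin, a toxin of insulin-producing cells, at 2 days of age and a high-fat diet from week 4, which gives diabetes with fatty, inflamed liver (NASH). STAM-vehicle mice received vehicle, and STAM-I-BET151 mice received 10 mg/kg I-BET151, a blocker of the BET bromodomain proteins that read acetylated histones, by mouth once daily from week 6 to week 9, when liver was taken. The model therefore combines diabetes and diet, and no healthy mouse received the inhibitor. According to the methods, I-BET151 was suspended in hydroxypropyl methylcellulose with Tween 80 and the vehicle was methylcellulose, so the agent and its suspension medium cannot be told apart.

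Lanosterol is the first sterol ring made in animal cells, and the enzymes studied here trim it into cholesterol in the endoplasmic reticulum. CYP51, a cytochrome P450, removes the methyl group at C14, and TM7SF2 or the lamin B receptor LBR then reduces the double bond that this leaves. MSMO1, NSDHL and HSD17B7 work as a team that removes the methyl groups at C4, EBP shifts a double bond within the ring, SC5D adds one, and DHCR7 removes one. In liver the genes of this route are known targets of SREBP2, a transcription factor released when membranes run low in sterol.

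In STAM-vehicle liver Tm7sf2 stood 2.81-fold below its healthy level, while none of the other 7 genes passed the test. After I-BET151 Cyp51, Msmo1 and Nsdhl fell below STAM-vehicle. Against healthy liver all 8 genes were lower in STAM-I-BET151 liver.

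The 8 genes lie on 7 chromosomes of GRCm38, placed by the GENCODE M21 annotation. Cyp51 (ENSMUSG00000001467) lies on chromosome 5 at 4081145-4104746, Tm7sf2 (ENSMUSG00000024799) on chromosome 19 at 6062821-6068373, and Msmo1 (ENSMUSG00000031604) on chromosome 8 at 64718139-64733792, all on the minus strand. Nsdhl (ENSMUSG00000031349) lies on chromosome X at 72918557-72958514 on the plus strand, and Hsd17b7 (ENSMUSG00000026675) on chromosome 1 at 169949535-169969241 on the minus strand. Ebp (ENSMUSG00000031168) is on chromosome X at 8185329-8193512 and Sc5d (ENSMUSG00000032018) on chromosome 9 at 42251595-42264256, both on the minus strand, and Dhcr7 (ENSMUSG00000058454) is on chromosome 7 at 143823145-143848410 on the plus strand. A pair of them share exon bases with a neighbour. Tm7sf2 shares 532 exon bases with Vps51 on the same strand, and Cyp51 shares 166 with Akap9 on the opposite strand. Whether the counting used strand is not given in the sources used here.

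RefSeq promoter windows on GRCm38.p6 (250 bases before to 50 after a transcript start) were at hand for all 8 genes, 10 windows in all because Dhcr7 has 3. They were searched on both strands for TCACNCCAC, the sterol regulatory element that SREBP binds, for its looser relative TCACNTCA, and for CCAAT (NF-Y) and GGGCGG (Sp1), the boxes of 2 factors that often sit beside SREBP. The first 2 patterns differ at fixed letters and cannot match at the same place. TCACNTCA was present in 4 of the 8 genes (Cyp51, Hsd17b7, Sc5d and Dhcr7), against 3.99% of 27025 genes with a window, and in 5 of the 10 windows against 3.47% of all windows. TCACNCCAC was in 0 of the 8, against 1.44% of all genes. CCAAT was in 8 of 8 against 41.1%, and GGGCGG in 8 of 8 against 38.2%. Windows were also at hand for 8 genes listed upstream, on the stretch from acetyl-CoA to lanosterol. Among those, CCAAT was in 7, GGGCGG in 6, TCACNTCA in 0 and TCACNCCAC in 1. These are letter matches and not measured binding. The stretches around TCACNTCA in the 3 genes where it lies outside annotated exons are shown because they set side by side a gene that fell after I-BET151 (Cyp51) and a pair that did not pass that test. Capitals mark the match, and each is written 5′ to 3′ on the minus strand, which is the gene's own.
Cyp51, chr5:4104754-4104809: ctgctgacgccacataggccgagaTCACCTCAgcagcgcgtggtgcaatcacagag
Hsd17b7, chr1:169969291-169969346: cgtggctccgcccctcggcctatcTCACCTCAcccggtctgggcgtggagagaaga
Sc5d, chr9:42264321-42264376: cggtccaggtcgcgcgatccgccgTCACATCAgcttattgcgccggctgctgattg
The match began 88 bases before the start in Cyp51, 117 before it in Hsd17b7 and 52 before it in Sc5d. The Cyp51 and Hsd17b7 matches have the same 8 letters. Msmo1 and Nsdhl, which also fell after I-BET151, had neither sterol pattern in these windows.

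**Figure D1:**
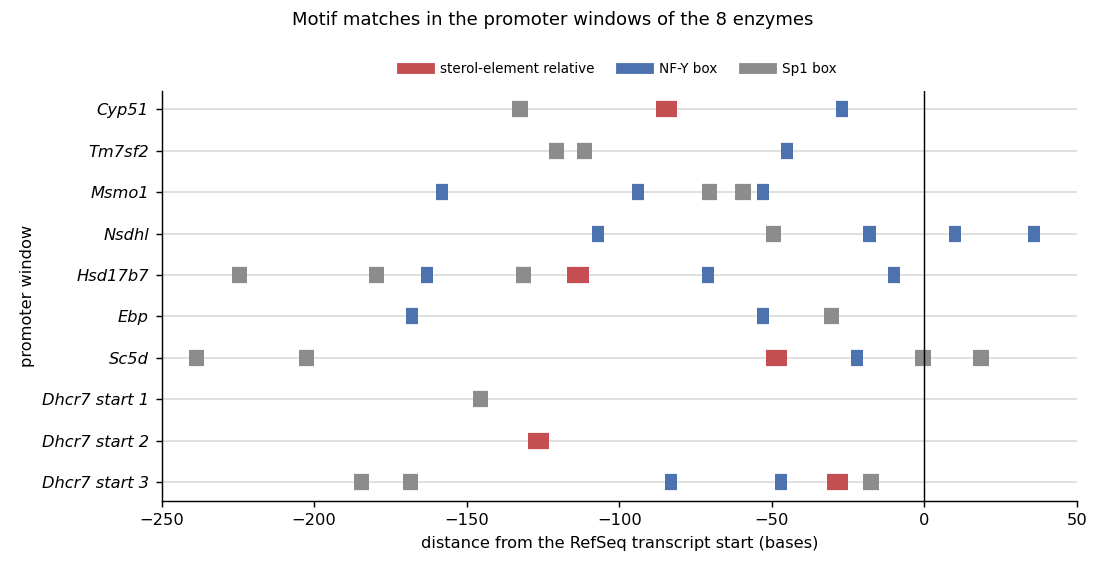
Matches to the looser sterol element (red), CCAAT (blue) and GGGCGG (grey) along each promoter window, drawn by distance in bases from the RefSeq transcript start, with Dhcr7 shown at its 3 starts. Red blocks stand in Cyp51, Hsd17b7, Sc5d and 2 of the Dhcr7 windows, and each gene has at least 1 blue and 1 grey block.

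Libraries held 34711229 to 53365596 counted reads, and the 8 genes had 263 to 8137 counts in a mouse, the fewest for Nsdhl. STAM-I-BET151 mouse 3 stood apart. Its top 10 genes took 7.95% of its counts against 13.5% to 18.05% in the other mice, mitochondrial genes took 2.71% against 4.51% to 7.30%, and its summed hepatocyte markers were 18404 CPM against 66101 to 80855 in the other 3 treated mice. Its summed nuclear-retained RNAs were 4875 CPM against at most 2166 in any other mouse. The study left 1 treated sample out without naming it. All 12 mice were used here, and results are given also without mouse 3. Levels are given as CPM, read counts scaled to the library total and by edgeR's TMM factors. The factor of mouse 3 was 1.61, which lowers its CPM, against 0.770 to 1.11 in the other mice. Nothing in the labels says more of the replicates than that they are separate mice.

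Levels between genes were compared per kilobase of exon, counting all annotated exons of a gene together. For Tm7sf2 this was 4.403 kb of a gene spanning 5.553 kb. The order of the genes therefore rests on the annotation as well as on the counts, and the SDs cover only the spread between mice. In healthy liver Ebp stood highest, at 67.8 ± 2.30 CPM per kb (SD, n = 4), and Nsdhl lowest, at 5.46 ± 0.203. Between them came Sc5d at 36.8 ± 1.999, Tm7sf2 at 18.8 ± 2.40, Hsd17b7 at 13.7 ± 1.48, Cyp51 at 9.49 ± 0.945, Msmo1 at 9.37 ± 0.933 and Dhcr7 at 6.87 ± 1.21 CPM per kb. Cyp51 and Msmo1 did not differ beyond their spread, and the other neighbours in this order were further apart than the SD of either. In STAM-vehicle liver Ebp and Sc5d kept the top places, Msmo1 came next at 13.9 ± 4.16, within the spread of Hsd17b7 at 10.99 ± 3.05, and Tm7sf2 went from the third place to 6.68 ± 1.41 CPM per kb, within the spread of Dhcr7 at 6.85 ± 1.36 and Nsdhl at 5.75 ± 1.45. In STAM-I-BET151 liver Tm7sf2 had 4.44 ± 1.51 CPM per kb, within the spread of Msmo1, Dhcr7 and Cyp51. The sum of the 8 genes was 608 to 686 CPM in healthy mice, 464 to 676 in STAM-vehicle mice and 286 to 420 in STAM-I-BET151 mice.

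The first comparison asked what changed with disease. Tm7sf2, which encodes a reductase of the C14 double bond, had 80.1, 69.3, 94.0 and 87.1 CPM in healthy mice 1 to 4 and 28.9, 35.8, 21.1 and 31.8 CPM in STAM-vehicle mice 1 to 4. Every STAM-vehicle mouse lay below every healthy mouse. The fall was 2.81-fold (log2 fold change -1.49, SE 0.23, edgeR quasi-likelihood adjusted p = 0.00200). Vps51, which shares exon bases with it, had a log2 fold change of -0.04 (edgeR adjusted p = 0.895). Of the 8 genes 1 passed as lower and 0 as higher, where 1.38% of all genes tested passed as lower and 5.72% as higher. At an unadjusted p under 0.05 the count was 2 of 8, Tm7sf2 lower and Msmo1 higher, where 22.3% of all genes were in either direction, a share close to that of the 8. DESeq2 also called only Tm7sf2, and 6.46% of all genes.

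The methyl-removing genes did not pass. Cyp51, the first enzyme of the route, had 36.6, 46.2, 44.0 and 40.9 CPM in healthy mice and 32.7, 40.2, 37.8 and 66.5 CPM in STAM-vehicle mice, with a log2 fold change of 0.08 (edgeR adjusted p = 0.878). STAM-vehicle mouse 4 was the highest of all 12 mice for Cyp51. Msmo1, the C4 methyl oxidase, had 49.3, 58.0, 61.7 and 61.2 CPM in healthy mice and 77.2, 77.7, 63.6 and 122 CPM in STAM-vehicle mice. Its groups did not overlap, yet the log2 fold change of 0.57 (SE 0.24) did not pass the test (edgeR adjusted p = 0.181). Nsdhl, the dehydrogenase of the same C4 team, had 15.6, 14.8, 16.1 and 15.9 CPM in healthy mice against 13.5, 14.3, 15.3 and 22.5 CPM in STAM-vehicle mice (log2 fold change 0.08, edgeR adjusted p = 0.832).

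The later genes did not pass either, and the values of Hsd17b7 and Dhcr7 turned above 0 with lane as a covariate. Ebp, the isomerase, ranged from 149 to 161 CPM in healthy and from 92.9 to 132 CPM in STAM-vehicle mice, with no overlap between the groups (log2 fold change -0.48, edgeR adjusted p = 0.257). Hsd17b7, the ketone reductase of the C4 team, had a log2 fold change of -0.32 (edgeR adjusted p = 0.361), Sc5d one of -0.27 (0.328) and Dhcr7 one of -0.0039 (0.992), all with overlapping groups. The 8 genes had a median of -0.14 on the log2 scale, and all genes tested together one of 0.01. Every STAM-vehicle mouse lay below every healthy mouse for 2 of 8 genes (Tm7sf2 and Ebp) and above for 1 (Msmo1), where 12.2% and 14.2% of all genes did so. Ebp depended on 1 library of a group outside the comparison. Without STAM-I-BET151 mouse 3, whose spread enters the shared estimate, it passed at a log2 fold change of -0.50 (edgeR adjusted p = 0.00954). That fit called 3779 of 16967 genes, against 1195 of 16823 with all 12 mice.

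**Figure D2:**
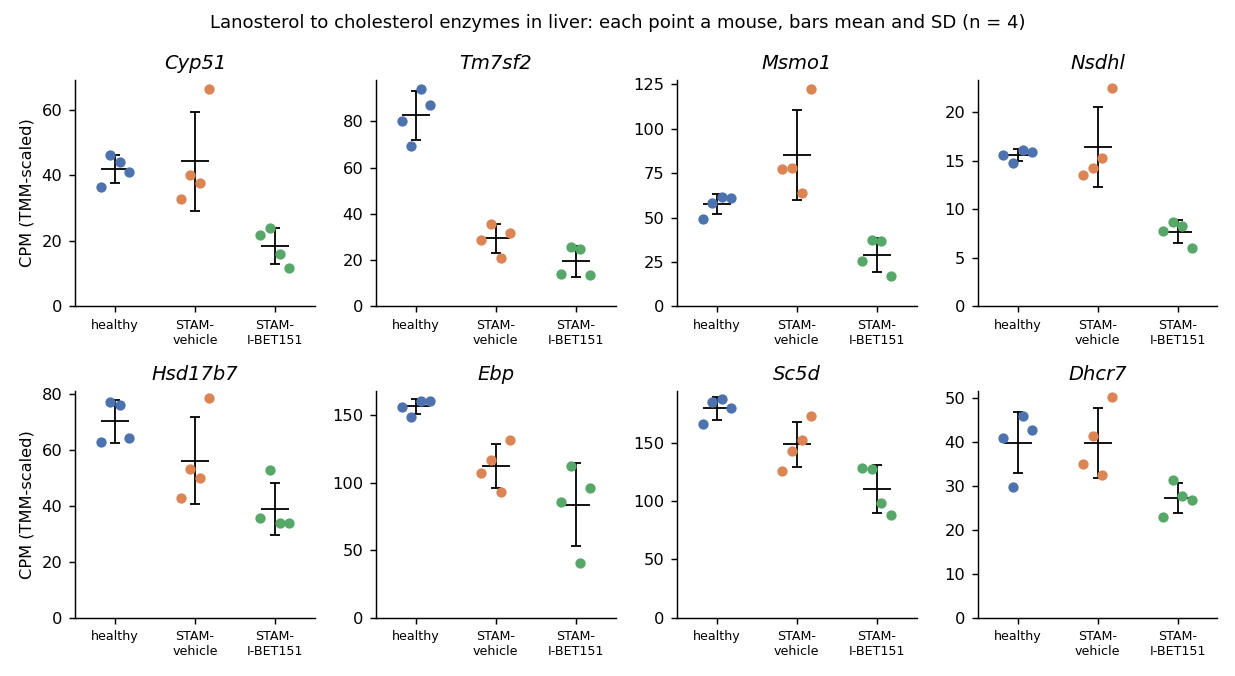
TMM-scaled CPM of each gene in each mouse, with the group mean and SD as black bars (n = 4 per group, axes from 0). Tm7sf2 drops between healthy and STAM-vehicle mice, while Cyp51, Msmo1 and Nsdhl separate STAM-I-BET151 mice from both other groups. For Msmo1 and Nsdhl the place of treated mouse 3 below the healthy mice rests on its TMM factor.

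The second comparison asked what the BET inhibitor changed in the diseased liver. Msmo1 had 25.4, 37.2, 36.6 and 17.2 CPM in STAM-I-BET151 mice 1 to 4, all below the lowest STAM-vehicle mouse at 63.6 CPM. It fell 2.93-fold (log2 fold change -1.55, SE 0.24, edgeR adjusted p = 0.0304). Its level was also below every healthy mouse, which for treated mouse 3, with 2041 counts of Msmo1, rests on the TMM factor of that mouse.

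Nsdhl, next in the same team, had 7.76, 8.68, 8.32 and 6.04 CPM in STAM-I-BET151 mice. All 4 lay below the lowest STAM-vehicle mouse at 13.5 CPM, and the SD was 1.17 CPM. It fell 2.13-fold (log2 fold change -1.09, SE 0.17, edgeR adjusted p = 0.0258).

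Cyp51 had 21.8, 24.01, 15.9 and 11.8 CPM in STAM-I-BET151 mice, again all below the lowest STAM-vehicle mouse, at 32.7 CPM. It fell 2.41-fold (log2 fold change -1.27, SE 0.24, edgeR adjusted p = 0.0550), which passes the threshold of 0.1 that the study set for this comparison and would not pass one of 0.05.

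The other 5 genes had fold changes below 0 that did not pass. Dhcr7, the last of the ring reductases, had 22.9, 31.4, 27.8 and 26.9 CPM in STAM-I-BET151 mice, each below the lowest STAM-vehicle mouse at 32.6 CPM (log2 fold change -0.55, SE 0.17, edgeR adjusted p = 0.310). For mouse 3, with 1548 counts of Dhcr7, that place rests on its TMM factor. Tm7sf2, already low in STAM-vehicle mice, had 14.03, 25.7, 25.0 and 13.5 CPM, and its groups overlapped (log2 fold change -0.59, SE 0.23, edgeR adjusted p = 0.453). Hsd17b7 had a log2 fold change of -0.53 (edgeR adjusted p = 0.431), Sc5d one of -0.43 (0.420) and Ebp one of -0.42 (0.668), each with overlapping groups. Thus 3 of 8 genes passed as lower where 0.256% of all genes did, and 4 of 8 separated the groups downward where 2.63% did. On the log2 scale the median was -0.57 for the 8 genes and 0.02 for all genes tested. This comparison and the first share the STAM-vehicle mice.

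Single mice decided some of these calls. Without STAM-I-BET151 mouse 3 the same 3 genes passed, Msmo1 with a log2 fold change of -1.67 (edgeR adjusted p = 0.0132), Nsdhl with -1.12 (0.0149) and Cyp51 with -1.20 (0.0554). That fit called 403 of 16967 genes, against 59 of 16823 with all 12 mice. Ebp, which was lowest of all in that mouse at 40.4 CPM, went from -0.42 to -0.19. Nsdhl passed in all 12 fits that left out a mouse. Msmo1 did so in 11, and failed without STAM-I-BET151 mouse 1 (edgeR adjusted p = 0.133). Cyp51 did so in 8, and failed without STAM-I-BET151 mouse 1 (0.133) or 4 (0.124) or STAM-vehicle mouse 2 (0.127) or 4 (0.164). In a fit of only these 2 groups 0 of the 8 passed by edgeR, where 0.048% of all genes did. The adjusted p in that edgeR fit was 0.143 for Msmo1 and Nsdhl and 0.258 for Cyp51. At an unadjusted p under 0.05 that fit had 7 of 8, where it had 6.38% of all genes.

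The file names give the sequencing lane, and the 12 libraries lay on 6 lanes. STAM-I-BET151 and STAM-vehicle mice shared a lane in 3 pairs. Within those pairs the log2 difference was -0.58, -1.25 and -2.49 for Cyp51, -1.60, -0.80 and -2.83 for Msmo1 and -0.80, -0.88 and -1.89 for Nsdhl, on lanes 6, 7 and 2. The remaining genes were lower in the treated mouse in 3 of 3 pairs, except Sc5d and Tm7sf2 with 2 of 3. With lane as a covariate, which leaves 4 residual degrees of freedom in place of 9, edgeR called 0 of the 8 and 0 of all genes. At an unadjusted p under 0.05 it had 7 of the 8 and 8.83% of all genes. The fold changes of Cyp51, Msmo1 and Nsdhl were then -1.40, -1.72 and -1.18 on the log2 scale, with adjusted p of 0.287, 0.194 and 0.194. For the disease comparison only 1 pair shared a lane, and there Tm7sf2 differed by -1.33 on the log2 scale. With lane as a covariate its disease fold change was -1.41 (edgeR adjusted p = 0.259).

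The third comparison set treated diseased liver against healthy liver. Tm7sf2 was 4.23-fold lower in STAM-I-BET151 mice (log2 fold change -2.08, SE 0.23, edgeR adjusted p = 0.000208), and the highest treated mouse, at 25.7 CPM, lay below the lowest healthy mouse at 69.3 CPM. Cyp51 was 2.28-fold lower (log2 fold change -1.19, edgeR adjusted p = 0.00644), Nsdhl 2.02-fold (-1.02, 0.00216) and Msmo1 1.98-fold (-0.98, 0.0165). Ebp was 1.87-fold lower (edgeR adjusted p = 0.0234), Hsd17b7 1.80-fold (0.0129), Sc5d 1.62-fold (0.0107) and Dhcr7 1.47-fold (0.0399). Hence 8 of 8 passed as lower, where 5.25% of all genes did, and for 7 of 8 every treated mouse lay below every healthy one, where 8.85% of all genes did. The exception was Dhcr7, for which healthy mouse 2 had 29.9 CPM and treated mouse 2 had 31.4 CPM. Treated mouse 3 had 2041, 464 and 5456 counts of Msmo1, Nsdhl and Sc5d. For these genes its place below every healthy mouse rests on its TMM factor. The median on the log2 scale was -0.94 for the 8 genes and 0.06 for all genes tested.

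Leaving out single mice changed the call for Ebp and Dhcr7 and for none of the other 6 genes. Without STAM-I-BET151 mouse 3 all 8 passed. Ebp failed without healthy mouse 2 (edgeR adjusted p = 0.0565), 3 (0.0609) or 4 (0.0654). Dhcr7 failed without healthy mouse 1 (0.0726), 3 (0.119) or 4 (0.113), without STAM-I-BET151 mouse 1 (0.0922) or 4 (0.0767), or without STAM-vehicle mouse 2 (0.0560). Dhcr7 also failed when 10 counts were required in all mice (edgeR adjusted p = 0.0535), and in a fit of only these 2 groups both Dhcr7 (0.0760) and Ebp (0.0703) did. With lane as a covariate only Tm7sf2 passed (log2 fold change -2.03, edgeR adjusted p = 0.0417), where 0.505% of all genes did. In the 2 pairs of mice that shared a lane, all 8 genes were lower in the treated mouse. This comparison shares its treated mice with the second and its healthy mice with the first, so the fold changes add up across them by construction.

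**Figure D3:**
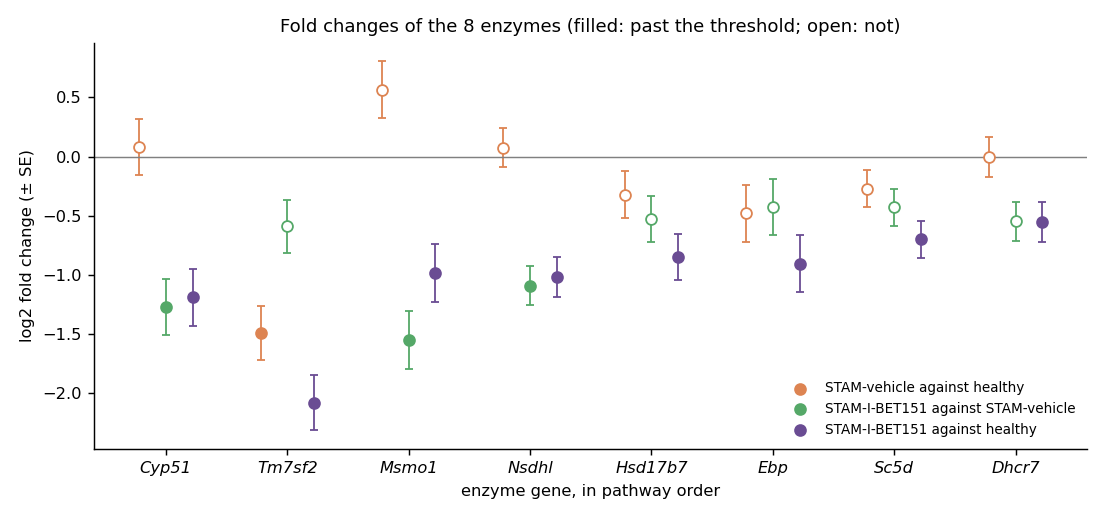
Log2 fold change with SE of each gene, in pathway order, for STAM-vehicle against healthy (orange), STAM-I-BET151 against STAM-vehicle (green) and STAM-I-BET151 against healthy (purple), with filled points past the threshold and open points not. Only Tm7sf2 is filled in orange, Cyp51, Msmo1 and Nsdhl are filled in green, and all 8 are filled in purple.

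The C14 double bond can be reduced by either of a pair of enzymes, so the level of Lbr bears on what Tm7sf2 leaves behind. Lbr, a nuclear membrane protein that doubles as a sterol reductase, had 1.60 ± 0.212 CPM per kb in healthy, 1.56 ± 0.237 in STAM-vehicle and 1.45 ± 0.277 in STAM-I-BET151 liver. Its log2 fold change was -0.04 with disease and -0.10 after I-BET151 (edgeR adjusted p = 0.924 and 0.928). Per kilobase of all annotated exons, Tm7sf2 exceeded Lbr in every mouse, and the size of this gap rests on the annotated lengths. The ratio of Tm7sf2 to Lbr was 9.09 to 16.7 in healthy mice, 3.06 to 5.22 in STAM-vehicle mice and 2.18 to 5.15 in STAM-I-BET151 mice, so the healthy range stood clear of both others while those overlapped. Tm7sf2 made up 11.01% to 13.7% of the summed CPM of the 8 genes in healthy mice, 4.54% to 6.84% in STAM-vehicle mice and 4.11% to 8.74% in STAM-I-BET151 mice.

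Few other genes of the same route passed. Of 10 further enzymes and partners listed, 9 were tested, and 1 of them, Pgrmc2, a heme-binding partner of P450 enzymes, fell with disease (log2 fold change -0.62, edgeR adjusted p = 0.0356). After I-BET151 0 of the 9 passed in edgeR, with Cyb5b, a cytochrome b5 that hands electrons to oxidases, at -0.55 (adjusted p = 0.341). Cyb5b was the 1 gene of the 9 under an unadjusted p of 0.05, and DESeq2 called 0 and limma-voom 1, Cyb5b. Against healthy liver only Pgrmc2 of the 9 passed (log2 fold change -0.61, edgeR adjusted p = 0.0238), while DESeq2 called 2, Cyb5b as well.

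Upstream, 11 genes of the stretch from acetyl-CoA to lanosterol were listed, of which Ggps1 lies on a side branch. In the disease comparison 1 of the 11 passed as higher, where 5.72% of all genes did. Mvd, which makes isopentenyl diphosphate, rose with a log2 fold change of 1.29 (edgeR adjusted p = 0.00381), so in edgeR the single early gene that passed rose and the single late gene that passed fell. DESeq2 called 3 early genes in this comparison, Fdps and Lss beside Mvd, and 6.46% of all genes. After I-BET151, 4 of the 11 fell, where 0.256% of all genes passed as lower. They were Idi1, which isomerises isopentenyl diphosphate (log2 fold change -1.79, edgeR adjusted p = 0.0554), Sqle, the squalene epoxidase (-1.62, 0.0366), Mvd (-1.30, 0.0366), and Hmgcs1, an early synthase of the mevalonate route (-1.16, 0.0648). DESeq2 called 8 of the 11 there and 0.906% of all genes, and limma-voom 9 of the 11 and 7.16% of all genes. Lss, which closes squalene epoxide into lanosterol and so feeds the 8 genes, had a log2 fold change of 0.53 with disease and -0.66 after I-BET151 (edgeR adjusted p = 0.0669 and 0.168). The median after I-BET151 was -0.70 for the 11 early genes and -0.57 for the 8 later ones, and this difference was not tested. The 11 include the side-branch gene Ggps1, the only 1 of them above 0, at 0.07. Against healthy liver 3 of the 11 passed as lower, where 5.25% of all genes did. They were Idi1, Sqle and Hmgcs1, with log2 fold changes of -1.84, -1.28 and -1.04.

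**Figure D4:**
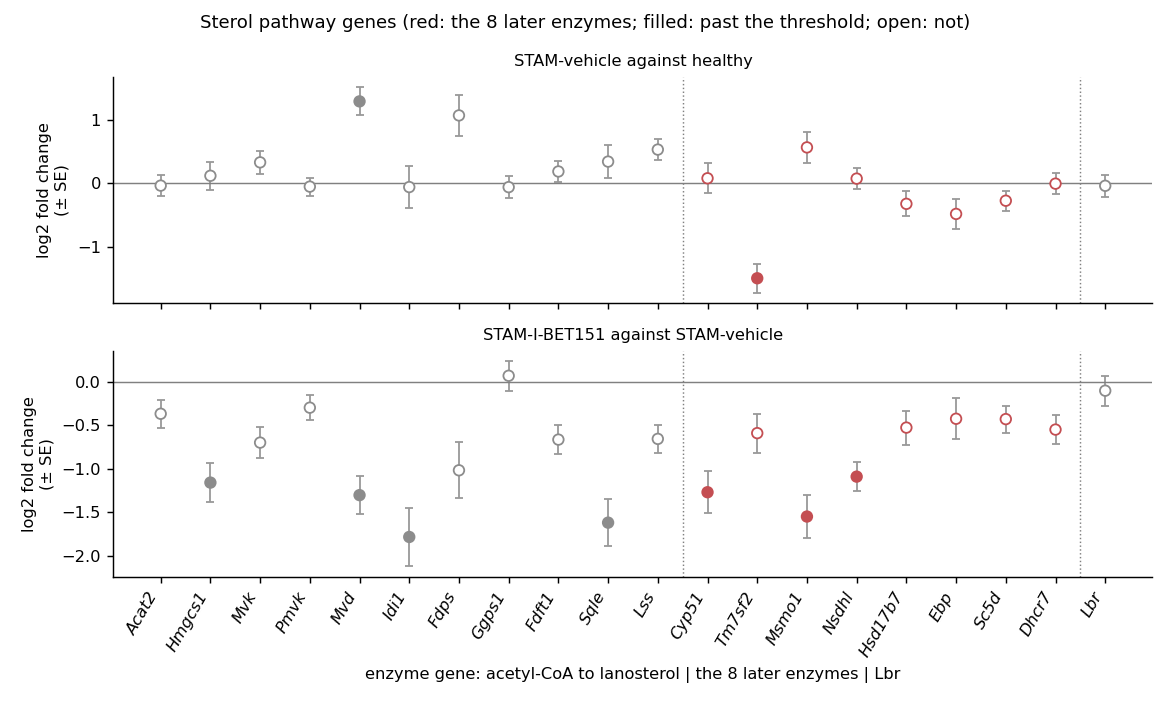
Log2 fold change with SE for the acetyl-CoA to lanosterol enzymes (with the side-branch gene Ggps1), the 8 later enzymes (red) and the further reductase Lbr. STAM-vehicle against healthy is above and STAM-I-BET151 against STAM-vehicle below (the vertical axes differ in range). Above, Mvd and Tm7sf2 are the filled points, on opposite sides of 0, and below, 4 early and 3 later genes are filled, all under 0.

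Among 9 genes of SREBP2 control and sterol uptake, 0 passed with disease in edgeR (1 at an unadjusted p under 0.05, Srebf1 at 0.65, with 0 called by DESeq2 and 1, Srebf1, by limma-voom). After I-BET151 0 of the 9 passed in edgeR, with 3 at an unadjusted p under 0.05, 2 called by DESeq2 (Srebf2 and Stard4) and 4 by limma-voom. DESeq2 and limma-voom called 0.906% and 7.16% of all genes there. The largest value was that of Stard4, a carrier of sterols between membranes (log2 fold change -0.93, edgeR adjusted p = 0.234). Srebf2 itself had a log2 fold change of 0.01 with disease and -0.41 after I-BET151 (edgeR adjusted p = 0.980 and 0.276), with every treated mouse below every STAM-vehicle mouse. Against healthy liver Stard4, Insig1 and Srebf2 were lower, at -1.33, -0.92 and -0.40 on the log2 scale, where 5.25% of all genes passed as lower. Of 7 genes of LXR, the sensor of oxidised sterols, 0 passed in any of the 3 comparisons in edgeR or DESeq2. At an unadjusted p under 0.05 edgeR had 2, 1 and 2 of them, and limma-voom called 2, 0 and 2, in the order of the comparisons above. With disease the largest value among them was that of Abcg1, at 0.68 on the log2 scale (edgeR adjusted p = 0.0773), after I-BET151 that of Nr1h2, at 0.31 (0.535), and against healthy liver Abcg1 again, at 0.65 (0.0586).

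Mouse by mouse, the 8 genes tended to go up and down together. After each group's mean was removed, Pearson's r between pairs of genes over the 12 mice had a median of 0.52 and was above 0 in 26 of 28 pairs, given as a description since all values share each mouse's library and scaling. Cyp51 and Sc5d were the closest pair (r = 0.94), followed by Hsd17b7 with Cyp51 (r = 0.85). Ebp followed the others least, with a median r of 0.28, and its pairs with Tm7sf2 (-0.12) and Msmo1 (-0.10) were the 2 below 0. That rested on STAM-I-BET151 mouse 3. Without it, those values were 0.83 and 0.72 and the median over all pairs was 0.72. In scaled units (SDs from each gene's mean over the 12 mice), STAM-vehicle mouse 4 had the highest average of the 8 genes, at 1.07, above the highest healthy mouse at 0.94, and STAM-I-BET151 mouse 4 the lowest, at -1.51. Both lay on lane 2. STAM-I-BET151 mouse 2, at -0.42, was the treated mouse nearest to the STAM-vehicle range, which ran down to -0.05.

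**Figure D5:**
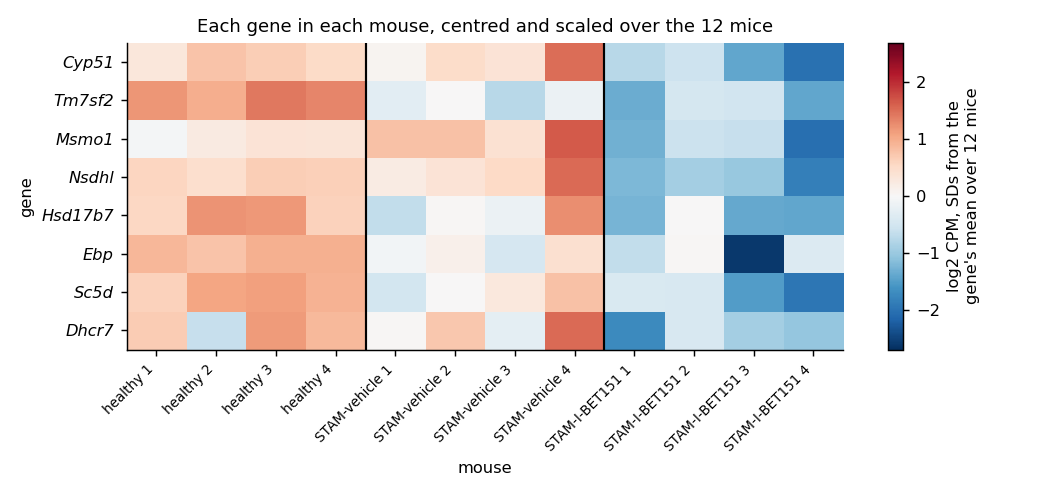
Each gene (rows, pathway order) in each mouse (columns, by group), coloured by log2 CPM in SDs from that gene's mean over the 12 mice. STAM-vehicle mouse 4 is red in all genes but Tm7sf2, the treated mice are blue for nearly all genes, and Ebp in STAM-I-BET151 mouse 3 is the darkest cell, at -2.61.

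The genes with the pattern most like the average of the 8, by Pearson's r over the 12 mice, were Atp1b1, a sodium pump subunit (0.94), Srebf2 (0.93), Slc26a1, an anion exchanger (0.93), Them4 (0.93), Ugt2b1, a UDP-glucuronosyltransferase (0.92), Acnat1 (0.92), Idi1 (0.92), 9430083B18Rik (0.92), Acy3 (0.92) and Surf1, a factor for assembly of cytochrome oxidase (0.91). Srebf2 and Idi1 are the 2 of these that belong to the sterol lists. The ranking uses differences between groups as well as between mice.

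Liver tissue holds several cell types, and a smaller share of a cell type cannot be told apart here from less RNA in each of its cells. The 6 hepatocyte markers, Alb, Apoa1, Ttr, Serpina1c, Cps1 and Hnf4a, were present in every mouse, with sums of 98772 to 115076 CPM in healthy, 48467 to 69515 in STAM-vehicle and 18404 to 80855 in STAM-I-BET151 mice, and 0 of 6 passed in any comparison in edgeR. At an unadjusted p under 0.05 the counts were 1, 0 and 3, DESeq2 called 0, 0 and 2, and limma-voom 3, 0 and 2, for disease, I-BET151 and treated against healthy. The sums were mostly Alb, with a mean of 81119 CPM in healthy and 41310 CPM in STAM-vehicle mice. With disease all 6 were below 0 on the log2 scale, from -0.97 (Alb) to -0.02 (Hnf4a), and 4 separated the groups. After I-BET151 4 were below 0 and 2 above, from -0.68 (Cps1) to 0.13 (Alb), and 0 separated the groups. Macrophage and Kupffer cell markers summed to 196 to 278 CPM in healthy, 319 to 568 in STAM-vehicle and 245 to 508 in STAM-I-BET151 mice, and 3 of 6 rose with disease (Adgre1, Cd68 and Clec4f). With disease DESeq2 called 5 of these 6 and limma-voom 6, and both called 0 after I-BET151. T cell markers summed to 2.10 to 5.38, 5.37 to 7.30 and 2.02 to 3.19 CPM in the same order of groups. In edgeR 1 of 6, Cd8a, rose with disease (log2 fold change 2.31, edgeR adjusted p = 0.00482), and 1 of 6, Cd4, fell after I-BET151. At an unadjusted p under 0.05 edgeR had 5, 5 and 1 of the 6, for disease, I-BET151 and treated against healthy. DESeq2 called 2, 3 and 0 of them, and limma-voom 5, 4 and 0. After I-BET151 all 6 were below 0 on the log2 scale, and 5 separated the groups downward. Stellate cell sums were 251 to 287, 198 to 324 and 235 to 301 CPM, endothelial sums 312 to 444, 334 to 394 and 299.99 to 385 CPM, and cholangiocyte sums 80.4 to 110, 90.2 to 118 and 87.6 to 138 CPM. With disease 1 stellate marker, Col1a1, passed as higher. In treated against healthy mice 3 of 6 macrophage markers passed as higher, Cd68 (edgeR adjusted p = 0.00602), Csf1r (0.0317) and Clec4f (0.0466). In that comparison Col1a1, Pdgfrb and the cholangiocyte marker Krt7 also passed as higher and the stellate marker Reln as lower. The endothelial markers gave 0 of 6 in each comparison in edgeR, with 1, 0 and 2 at an unadjusted p under 0.05, 0, 0 and 1 called by DESeq2 and 2, 0 and 2 by limma-voom. No marker of these 6 lists was at 0 in any mouse. The ranges of the hepatocyte and macrophage sums did not overlap between healthy and STAM-vehicle mice, as for Tm7sf2 and Ebp (lower) and Msmo1 (higher). Those of the T cell sums did not overlap between STAM-vehicle and STAM-I-BET151 mice, as for Cyp51, Msmo1, Nsdhl and Dhcr7. Hepatocyte sums also stood apart between healthy and STAM-I-BET151 mice, as for 7 of the 8 genes. Nuclear-retained RNAs, taken as a possible sign of RNA quality, summed to 834 to 1245 CPM in healthy, 1356 to 2166 in STAM-vehicle and 1175 to 4875 in STAM-I-BET151 mice. Healthy and STAM-vehicle ranges did not overlap. Those sums were mostly Neat1, with a mean of 769 CPM in healthy and 1297 CPM in STAM-vehicle mice, and no direct measure of RNA quality was used. Of the 5 nuclear-retained RNAs tested, 1 (Snhg11) passed as higher with disease (edgeR adjusted p = 0.0476) and in treated against healthy mice (0.00622). Their part in these results was not tested. Leaving out mouse 3, hepatocyte sums after I-BET151 were 66101 to 80855 CPM, overlapping the STAM-vehicle range, while the same 3 genes were called.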

How the data were processed

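Liver RNA of 12 mice (4 healthy, 4 STAM-vehicle, 4 STAM-I-BET151) was sequenced from poly(A)-selected stranded libraries. The authors aligned reads with STAR 2.5.1b to mm10 and deposited raw counts of uniquely mapped reads per gene. The study's methods name htseq-count for the counting and the deposited files' names point to featureCounts, and which was used could not be settled. The annotation release is not given in the sources used here. Of 47729 identifiers, 47310 matched GENCODE M21. Groups came from the labels. Counts were filtered, TMM-scaled and tested across all 12 mice with edgeR 4.0.16 (quasi-likelihood, Benjamini-Hochberg over 16823 genes). Thresholds on the adjusted p were 0.05 with disease, 0.1 after I-BET151, both as the study used, and 0.05 against healthy liver. The fit was tested on simulated data. SE is the absolute log2 fold change over the root of F. Log2 CPM used a prior count of 2. DESeq2 1.42.0, limma 3.58.1 and other settings were alternatives. Named were the 8 genes, listed genes that passed or at most 4 with the largest change, and the 10 most similar. The genes and lists were chosen with earlier results of these data known. Some listed genes are not reported here and were left out of the lists' counts and medians. Replicate counts differed beyond sampling noise in every pair of mice.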

Additional observations from a re-analysis of the deposited data

Results flagged for a closer look

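Hsd17b7 in STAM-I-BET151 mouse 2 was at 52.9 CPM, far above the other 3 treated mice, which lay between 33.7 and 35.5 CPM. The gap was 0.910 of the group's range, above Dixon's 95% critical value for 4 mice. It was the 1 of 24 sets of 4 values examined (8 genes in 3 groups) to pass that limit, and chance alone passes about 1 in 20.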

How the results depend on the processing

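The number of the 8 genes past the threshold changed as follows. With disease (1 gene) it was 0 with lane as a covariate, where 0.22% of all genes passed. At an unadjusted edgeR p under 0.05 the lane fit had 1, and 7.72% of all genes. It was 3 by limma-voom with sample weights and 3 with only the 2 groups compared, where Ebp and Msmo1 joined Tm7sf2, but these fits called 33.7% and 23.9% of all genes. After I-BET151 (3 genes) it was 0 with lane (0 of all genes), 7 by limma-voom (7.16% of all genes) and 0 with only the 2 groups (0.048%). Against healthy liver (8 genes) it was 1 with lane, 7 when 10 counts were required in all mice (without Dhcr7) and 6 with only the 2 groups (without Dhcr7 and Ebp). These 3 fits called 0.505%, 15.3% and 7.88% of all genes. Leaving out each mouse in turn gave 1 to 2, 1 to 3 and 6 to 8 genes, where 546 to 3779, 13 to 403 and 1292 to 3731 of all genes passed. Once group means were removed, mice of the same replicate number in different groups had a mean r of -0.0927, against 0.0305 for other pairs. Removing the means ties these values to each other, so they cannot show whether the number pairs the mice. The STAM-I-BET151 and STAM-vehicle mice that shared a lane also shared a number. With the replicate number as a block, 1, 0 and 7 of the 8 genes passed in edgeR, where 4.41%, 0.0594% and 9.35% of all genes did. After I-BET151 7 of the 8 had an unadjusted p under 0.05 in that fit (6.53% of all genes). The cause of these changes was not tested. Of 480 refitted fold changes of the 8 genes, 11 had the opposite sign, all with disease and none past the threshold. Those were Hsd17b7 0.19 and Dhcr7 0.14 with lane, Dhcr7 0.027 when 10 counts were required in all mice and 0.088 by limma-voom, and values on leaving out single mice, which ranged from -0.19 to 0.20 for Cyp51 and -0.12 to 0.15 for Nsdhl (both below 0 without STAM-vehicle mouse 4) and from -0.15 to 0.080 for Dhcr7. The 24 group levels moved by less than 1 SD under DESeq2 size factors. Over all genes, calls numbered 1195, 59 and 2546, and 3779, 403 and 3464 without STAM-I-BET151 mouse 3, with ranges over the settings other than single mice of 37 to 5672, 0 to 1205 and 85 to 4880. With 4 mice per group, differences of the size seen in Tm7sf2, Hsd17b7, Sc5d and Ebp after I-BET151 lie within 3 SEs of 0. A fit that misses the threshold there does not show equal levels.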
